A study of Homo sapiens with 8 samples.

Results

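Anterior foregut endoderm was set against definitive endoderm, the stage before it, in H1, an established line of human embryonic stem cells. The comparison takes 4 of the 8 libraries of the series: 2 of definitive endoderm (hDE) and 2 of anterior foregut endoderm (hAFE), chosen by their labelled stage. The other 4 libraries, 2 of undifferentiated cells (hESC) and 2 of pharyngeal foregut endoderm (hPFE), entered the same model and are used here for context. The members are all annotated genes: 58780, of which 17446 passed the filter on low counts. Each stage is a step of one directed differentiation towards pharyngeal endoderm. The labels give no culture day, medium, factor or dose and name H1 as the only line. Whether the replicates were grown separately is not stated, and p-values measure only how these libraries vary, a spread that may be technical. The hDE and hESC libraries are marked as re-analysed in their titles, and the hAFE and hPFE libraries are not. Stage and origin therefore cannot be told apart in any value of hAFE against hDE.

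Definitive endoderm forms during gastrulation, when cells of the primitive streak that receive strong Nodal signalling leave the epiblast and form the gut tube. Nodal is a secreted ligand of the TGF-beta family that needs the coreceptor TDGF1 (Cripto) and switches on its own antagonists, the Lefty proteins and CER1. The front end of the tube becomes the foregut, marked by SOX2 with FOXA2, from which the pharynx, thyroid, thymus, oesophagus and lungs arise. Retinoic acid, FGF, BMP, WNT and hedgehog signals then set position along the tube, and HOX genes record how far back a cell lies.

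The 4 libraries held 12687161 to 16167869 counts, with 22742 to 23795 genes detected. Mitochondrial ribosomal RNA took 10.6% to 14.2% of counts. The 7SL RNA share was 11.4% to 11.7% in hDE and 4.11% to 5.18% in hAFE, so this share differed with stage. Its part in the results was not tested alone. A fit without small structural, mitochondrial and histone genes is given below with the counts of calls. The hAFE libraries were less alike than the hDE libraries: of 9852 genes, 600 lay over 2 fold apart in hAFE and 50 in hDE. Levels are CPM, counts scaled to library depth with TMM factors, with hDE and hAFE values always given in the order replicate 1, replicate 2. A gene was called when the Benjamini-Hochberg adjusted p of edgeR's quasi-likelihood test fell below 0.05, and 0 counts over both libraries of a stage allow up to 0.12 CPM in hDE and 0.104 CPM in hAFE. In bulk RNA, fewer cells of a type and less RNA per cell cannot be told apart.

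The markers of both labels were partly present. SOX17, the factor that defines definitive endoderm, was at 126 and 149 CPM in hDE, and 0.132 and 0.146 CPM in hAFE, and the endoderm factor GATA4 at 107 and 98.4 CPM in hDE, and 1.52 and 0.219 CPM in hAFE. FOXA2, which opens chromatin in all foregut endoderm, was at 27.6 and 27.7 CPM in hDE, and 41.2 and 17.7 CPM in hAFE, with overlapping libraries (adjusted p = 0.888). SOX2 (hg38, chr3:181711924-181714436, plus strand) was at 0.623 and 1.01 CPM in hDE, and 158 and 57.2 CPM in hAFE, far apart in the stages (log2 fold change 6.999, SE 0.59, adjusted p = 0.00021). SOX17 and SOX2 thus separated the stages in every library. Of the pharyngeal markers, PAX9 was at 5.52 and 2.10 CPM in hDE, and 25.4 and 21.8 CPM in hAFE (adjusted p = 0.0161; 0.11 without the second hDE library). Expression of TBX1, which patterns the pharyngeal arches, was at 0 and 0 CPM in hDE, and 0.727 and 5.996 CPM in hAFE (adjusted p = 0.0239; 0.0905 and 0.103 without the first and the second hDE library). The hAFE libraries thus held SOX2 and FOXA2 together, both with PAX9, while TBX1 was low in both.

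Of 17446 genes tested, 5267 (30.2%) differed between the stages: 2609 were higher in hAFE (15.0%) and 2658 lower (15.2%). The median change over the tested genes was 0.01 on the log2 scale. Changes of 10 fold or more numbered 474 higher and 536 lower. Without small structural, mitochondrial and histone genes, 2584 genes were higher and 2712 lower, and 2573 and 2628 of these were among the calls above. On the deposited TPM scale, where the median gene itself moved by 0.50 on the log2(TPM + 1) scale, the split was 6457 higher and 818 lower, and with each library centred on its median it was 1876 and 3841. Directions of single genes below are therefore relative to the typical gene on the CPM scale. The hDE and hAFE libraries did not overlap in 70.3% of all tested genes. Among single libraries left out, the hDE libraries lowered the counts most: without the first 1135 genes were higher and 1409 lower, and without the second 1139 and 1373. In all 904 higher and 1181 lower calls were kept when each of the 4 libraries was left out in turn.

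**Figure D1:**
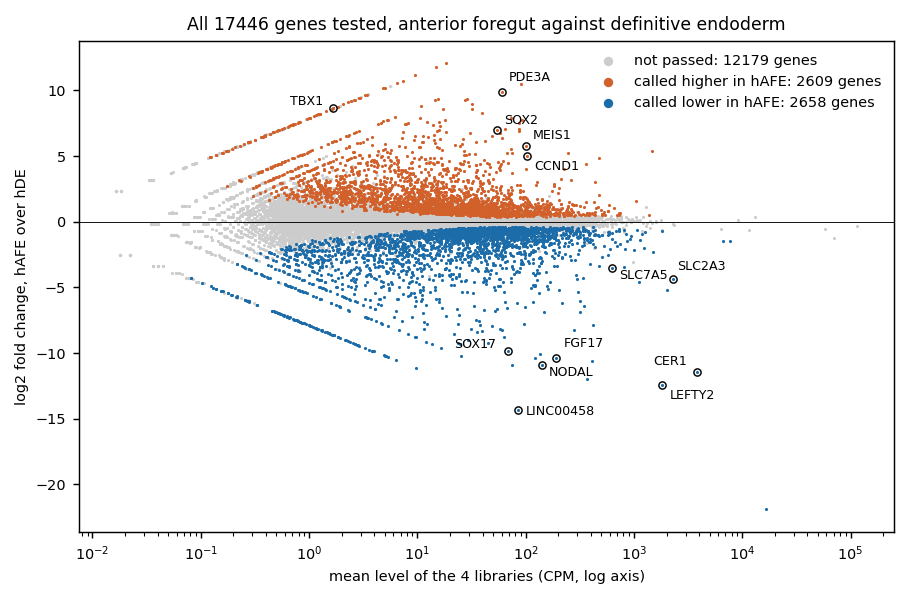
Log2 fold change of hAFE over hDE (vertical axis) against the mean CPM of the 4 libraries (log axis) for the 17446 genes tested, 1 point per gene, with 2609 called higher in orange and 2658 called lower in blue. Named falls such as LEFTY2, CER1 and NODAL lie below -10, and the lowest point is the 7SL RNA gene RN7SL1, whose reads can be shared with near-identical copies.

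Read as lists of related genes, the streak, pluripotency, Nodal and integrated stress response lists held more falls than rises, and the foregut, hedgehog, cholesterol and replication lists held rises and no falls, while the ribosomal protein and nuclear respiratory chain lists held few calls either way. These counts are to be read against the 15.0% higher and 15.2% lower of all genes.

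**Figure D2:**
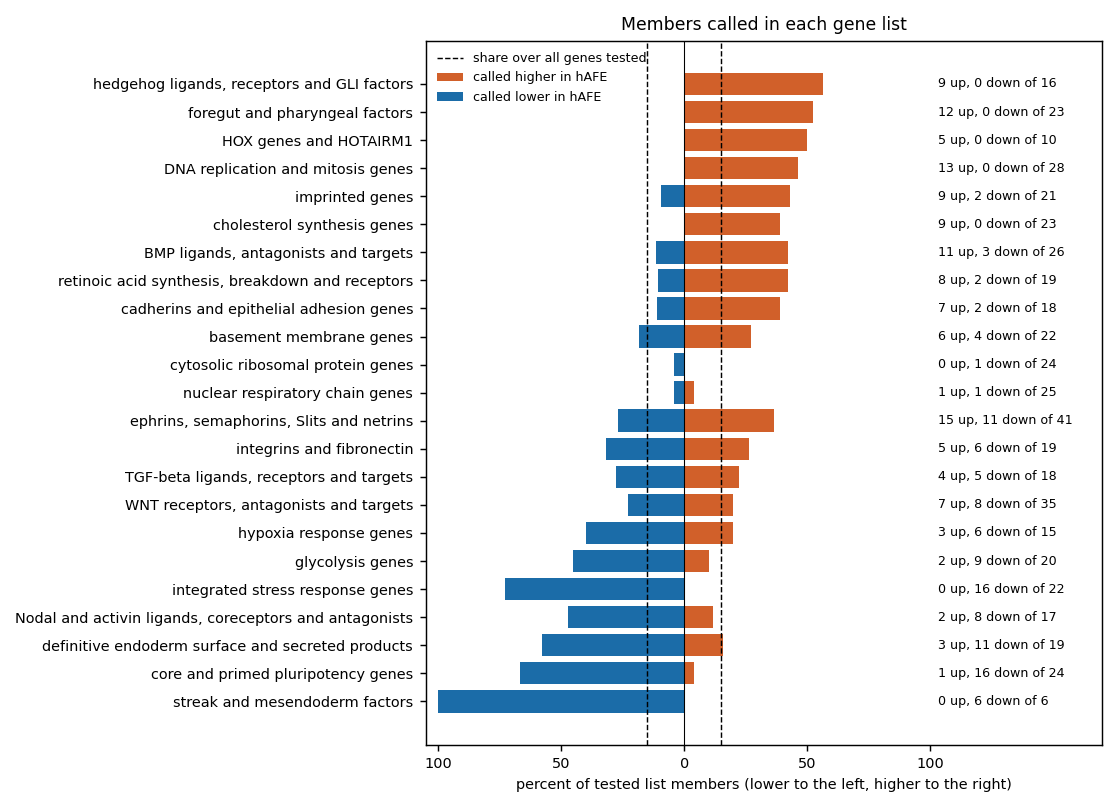
Percent of the tested members of each gene list called higher (orange, to the right) or lower (blue, to the left) in hAFE, with the counts printed at the right and dashed lines at the shares over all genes, 15.0% and 15.2%. All 6 tested streak factors were lower, and no member of the hedgehog, foregut, HOX, replication or cholesterol lists was.

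The streak factors EOMES, MIXL1 and GSC were abundant in hDE and near 0 in hAFE. EOMES, the T-box factor that starts endoderm formation, was at 277 and 263 CPM in hDE, and 0.132 and 0.366 CPM in hAFE (log2 fold change -10.07, SE 0.47, adjusted p = 2.08e-05). MIXL1, a homeobox factor of the streak, was at 82.2 and 98.4 CPM in hDE, and 0.264 and 0 CPM in hAFE (log2 fold change -9.26, SE 0.65, adjusted p = 9.06e-05). GSC, a homeobox factor of the organizer, was at 71.6 and 78.9 CPM in hDE, and 0.0661 and 0.585 CPM in hAFE (log2 fold change -7.86, SE 0.54, adjusted p = 8.36e-05). All 3 lay below 1 CPM in both hAFE libraries and above 70 CPM in both hDE libraries. All 6 tested streak factors were called lower, with a median of -7.54, against 0.01 over the tested genes. The other 5 of the 11 listed, TBXT, MESP1, EVX1, TBX6 and HOXD13, were below 1 CPM in both hDE libraries already and were not tested. In hESC, whose libraries share the origin label of hDE, EOMES was at a mean of 0.574 CPM, MIXL1 at 0.606 and GSC at 0.118.

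Nodal, its coreceptor and its antagonists LEFTY1, LEFTY2 and CER1 were lower in hAFE. NODAL itself (hg38, chr10:70432315-70447951, minus strand) was at 246 and 316 CPM in hDE, and 0.132 and 0.146 CPM in hAFE (log2 fold change -10.90, SE 0.30, adjusted p = 7.39e-06). TDGF1 was at 806 and 842 CPM in hDE, and 0.396 and 0.658 CPM in hAFE (log2 fold change -10.60, SE 0.62, adjusted p = 4.35e-05). The hAFE libraries of both genes lay below 1 CPM. LEFTY2, which blocks Nodal receptors, was at 3509 and 3792 CPM in hDE, and 0.463 and 0.877 CPM in hAFE (log2 fold change -12.41, SE 0.47, adjusted p = 1.24e-05). Its neighbouring near-copy LEFTY1, with which reads could be split, was at 594 and 881 CPM in hDE, and 0 and 0.366 CPM in hAFE (log2 fold change -11.98, SE 0.67, adjusted p = 3.98e-05). CER1, a secreted trap for Nodal and BMP, was at 7219 and 7995 CPM in hDE, and 1.85 and 3.66 CPM in hAFE (log2 fold change -11.44, SE 0.60, adjusted p = 3.29e-05) and had a mean TPM of 2313 in hDE, 1 of the 8 most abundant nuclear protein-coding genes there. No library of these antagonists overlapped between stages. Of 17 tested ligands, coreceptors and antagonists of Nodal and activin, 8 fell and 2 rose, with a median of -0.50. FSTL1, a follistatin-like gene, was one of the rises, at 357 and 333 CPM in hDE, and 818 and 865 CPM in hAFE (log2 fold change 1.29, SE 0.13, adjusted p = 0.000456).

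Feedback genes downstream of these receptors, PMEPA1, SMAD7 and SKIL, were lower too. PMEPA1, a membrane protein that traps receptor SMADs, was at 64.4 and 59.7 CPM in hDE, and 0.198 and 0.219 CPM in hAFE (log2 fold change -8.16, SE 0.30, adjusted p = 1.14e-05). SMAD7, the inhibitory SMAD, was at 33.5 and 42.4 CPM in hDE, and 7.33 and 11.04 CPM in hAFE (log2 fold change -2.05, SE 0.28, adjusted p = 0.00167). SKIL, a SMAD corepressor, was at 414 and 364 CPM in hDE, and 62.2 and 75.98 CPM in hAFE (log2 fold change -2.49, SE 0.28, adjusted p = 0.000722). All 3 were higher in hDE than in hESC as well as hAFE, with hESC means of 9.59, 15.4 and 215 CPM. The wider TGF-beta list was mixed, with 4 of 18 members higher and 5 lower. Among its ligands TGFB2 was at 1.60 and 0.724 CPM in hDE, and 132 and 33.5 CPM in hAFE (log2 fold change 6.18, SE 0.79, adjusted p = 0.00118). TGFB1 was at 5.61 and 6.66 CPM in hDE, and 0.463 and 0.731 CPM in hAFE (log2 fold change -3.35, SE 0.47, adjusted p = 0.00171), so that the ligands moved in opposite directions.

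The 250 bases before the start sites of the Nodal list were searched for AATNCACA, a core of the FOXH1 motif (FOXH1 carries activated SMADs to DNA), on both strands in promoters from RefSeq (GRCh38.p14). The table held promoters for 4 of the 8 members that fell, and the motif was in 2 of these 4, in 0 of 7 that did not pass and in 0 of 2 that rose; 2.83% of all 27305 promoters held it. The stretches with it are shown with the motif in capitals, as a match of letters and not as a measured binding site.
CER1, chr9:14722850-14722917, gene on the minus strand: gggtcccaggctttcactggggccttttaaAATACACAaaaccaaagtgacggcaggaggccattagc
GDF3, chr12:7695794-7695861, gene on the minus strand: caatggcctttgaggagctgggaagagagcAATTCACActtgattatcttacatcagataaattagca
GDF3, the Nodal-related ligand in this pair, was at a lower level, 1.42 and 0.869 CPM in hDE, and 0 and 0 CPM in hAFE, at least 10.7-fold lower in hAFE (adjusted p = 0.00824).

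**Figure D3:**
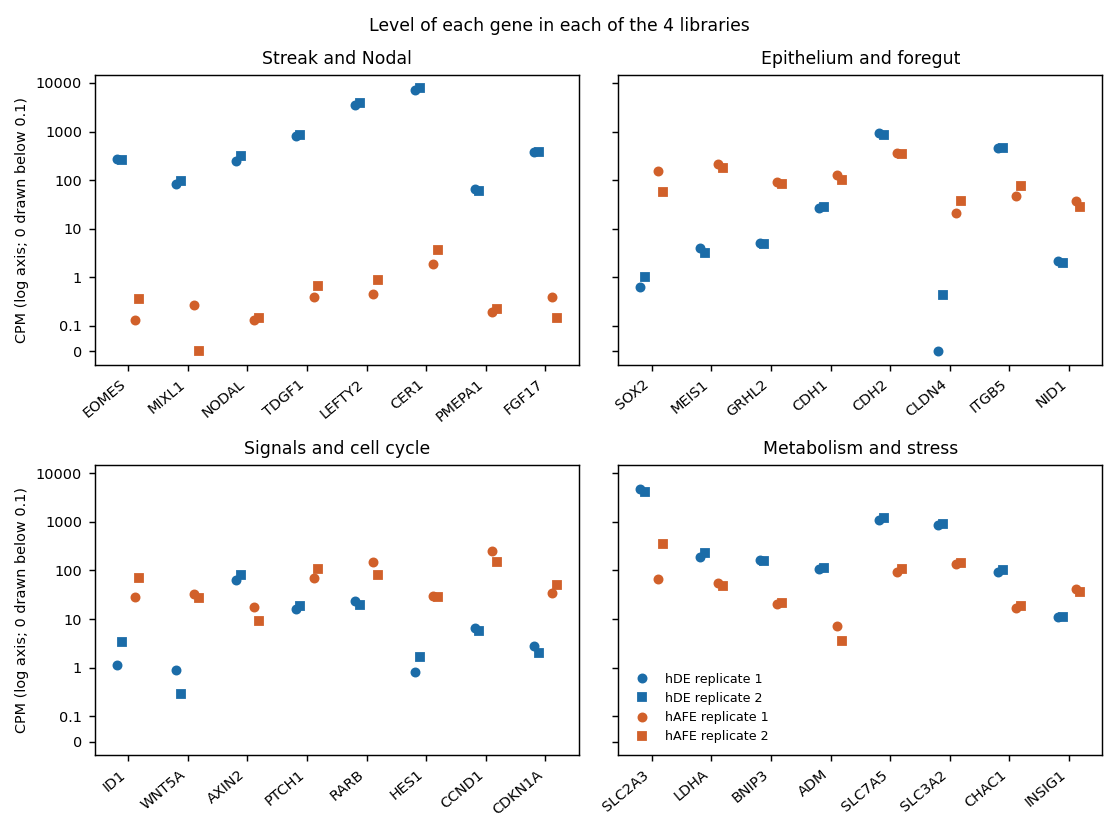
CPM of 32 genes in each library (log axis; circles replicate 1, squares replicate 2; hDE blue, hAFE orange; 0 is drawn below 0.1). Streak and Nodal genes sit above 50 CPM in both hDE libraries and below 5 CPM in both hAFE libraries, and the remaining panels show the smaller separations of adhesion, signalling and metabolic genes.

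Definitive endoderm genes were lower in part. Of 19 tested surface and secreted products 11 fell and 3 rose (median -2.83), and of 16 endoderm factors 7 fell and 2 rose (median -1.30). CXCR4, the chemokine receptor used to sort definitive endoderm, was at 674 and 606 CPM in hDE, and 15.1 and 50.7 CPM in hAFE (log2 fold change -4.29, SE 0.57, adjusted p = 0.00148). CALCR, the calcitonin receptor, was at 113 and 84.01 CPM in hDE, and 0.132 and 0.658 CPM in hAFE (log2 fold change -7.97, SE 0.46, adjusted p = 4.35e-05). Expression of HHEX, a homeobox factor of anterior endoderm and later of liver and thyroid, was 29.6 and 35.2 CPM in hDE, and 0.198 and 2.85 CPM in hAFE (log2 fold change -4.43, SE 0.82, adjusted p = 0.0061). In each of these 3 the lowest hDE library was above the highest hAFE library. FOXA1 was 1 of the 2 factors that rose, at 6.14 and 6.88 CPM in hDE, and 78.6 and 26.7 CPM in hAFE (log2 fold change 3.01, SE 0.49, adjusted p = 0.00487).

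Pluripotency genes that hDE still carried were lower in hAFE: 16 of 24 tested fell and 1 rose, with a median of -4.60. The rise was SOX2, which the foregut also uses, with a mean of 129.9 CPM in hESC. NANOG was at 39.2 and 47.1 CPM in hDE, and 0.0661 and 0.146 CPM in hAFE, 418-fold (95% counting interval 143 to 2030) lower in hAFE (adjusted p = 2.36e-05). POU5F1 (OCT4) was at 10.9 and 25.8 CPM in hDE, and 0.396 and 0.439 CPM in hAFE (log2 fold change -5.44, SE 0.53, adjusted p = 0.000375), against 900.1 CPM in hESC. Both genes were below 1 CPM in both hAFE libraries, and the hDE libraries of POU5F1 lay over 2 fold apart. Both genes have processed copies that can take some of their reads.

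Part of the foregut and pharyngeal factors rose. Of 23 tested, 12 were higher and none lower (median 3.84), against 5 without the first hDE library and 3 called without the second. SOX2, described above, was one of them. ISL1, a LIM homeobox factor of pharyngeal endoderm and second heart field, was at 0.356 and 0.145 CPM in hDE, and 5.22 and 39.8 CPM in hAFE (log2 fold change 6.49, SE 1.21, adjusted p = 0.00611; adjusted p = 0.0643 without the second hDE library). In the list of EYA and DACH factors and their partners, which act in pharyngeal pouches and placodes, 5 of 10 rose and none fell. EYA1, a phosphatase and transcriptional coactivator, was at 9.08 and 8.55 CPM in hDE, and 34.6 and 99.5 CPM in hAFE (log2 fold change 2.93, SE 0.54, adjusted p = 0.00566; adjusted p = 0.0515 and 0.0562 without the first and the second hDE library). The second hAFE library was the higher for ISL1 and EYA1, and no hAFE library overlapped hDE.

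MEIS1 and MEIS2, homeobox cofactors that bind DNA with HOX proteins, rose too. MEIS1 was at 4.01 and 3.19 CPM in hDE, and 218 and 174 CPM in hAFE (log2 fold change 5.77, SE 0.39, adjusted p = 7.88e-05). MEIS2 was at 1.16 and 0.724 CPM in hDE, and 274 and 75.5 CPM in hAFE (log2 fold change 7.55, SE 0.71, adjusted p = 0.000346), while 5 of 9 members were higher and 1 lower. Both genes were under 1 CPM in hESC and under 5 CPM in hDE, and over 70 CPM in each hAFE library.

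The 2 hAFE libraries differed from each other in genes that mark position along the body axis. The first held more RNA of the HOX list. HOTAIRM1, a long non-coding RNA of the HOXA cluster, was at 0 and 0 CPM in hDE, and 55.5 and 3.73 CPM in hAFE. HOXB1 was at 0 and 0 CPM in hDE, and 11.9 and 0.146 CPM in hAFE. The summed level of the HOX list was 0.712 and 0.724 CPM in hDE and 228.1 and 14.6 CPM in hAFE, so hAFE exceeded hDE in both libraries but by very different amounts. Of 10 tested HOX-list members 5 passed and none fell. HOTAIRM1 (adjusted p = 0.0163) had adjusted p = 0.0734 and 0.0796 without the first and the second hDE library, and HOXB1 did not pass (adjusted p = 0.0651; 0.00762 without the second hAFE library).

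The second hAFE library was the higher for other homeobox factors. OTX2, a homeobox factor of forebrain, midbrain and anterior endoderm, was at 667 and 698 CPM in hDE, and 16.98 and 333 CPM in hAFE and did not pass (adjusted p = 0.221; 0.00396 without the second hAFE library). DMBX1, a paired-like homeobox gene, was at 0.178 and 0.145 CPM in hDE, and 0 and 22.3 CPM in hAFE. It did not pass the filter on low counts and was not tested. NKX2-3, a homeobox factor of pharyngeal and gut tissue, was at 0 and 0 CPM in hDE, and 0.264 and 22.2 CPM in hAFE and did not pass (adjusted p = 0.0635; 0.00347 without the first hAFE library and 0.0379 with DESeq2). All 3 were lower in the first hAFE library than in the second, and OTX2 lay below hDE in both.

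The CYP26 enzymes, which break down retinoic acid, split in the same libraries. CYP26B1 was at 0.267 and 0.217 CPM in hDE, and 61.9 and 0.366 CPM in hAFE, CYP26C1 at 0.178 and 0.290 CPM in hDE, and 0.925 and 157 CPM in hAFE and CYP26A1 at 1856 and 1609 CPM in hDE, and 8.13 and 414 CPM in hAFE. CYP26B1 was thus high in the first hAFE library alone and CYP26C1 in the second alone, while CYP26A1 lay below hDE in both, and lowest in the first. CYP26A1 did not pass (adjusted p = 0.137; 0.00168 without the second hAFE library), and the calls of CYP26B1 and CYP26C1 (adjusted p = 0.0323 and 0.026) had adjusted p = 0.639 without the first and 0.113 without the second hAFE library respectively. Without the first and the second hDE library the adjusted p was 0.162 and 0.175 for CYP26B1 and 0.148 and 0.149 for CYP26C1.

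Genes of other functions differed the same way. MEOX1, a somite homeobox gene, was at 0.0890 and 0 CPM in hDE, and 20.6 and 0.219 CPM in hAFE, BAALC at 0.267 and 0.797 CPM in hDE, and 117 and 3.14 CPM in hAFE, and the protocadherin gene PCDH19 at 0.890 and 1.67 CPM in hDE, and 50.8 and 3.88 CPM in hAFE, all higher in the first hAFE library. GATA6, an endoderm and mesoderm factor, fell from 242 and 242 CPM to 22.00 and 0.585 CPM (log2 fold change -4.41, SE 1.05, adjusted p = 0.0169; adjusted p = 0.0692 and 0.0697 without the first and the second hDE library). PDGFRA, a mesodermal and primitive endoderm receptor, was at 4.18 and 3.48 CPM in hDE, and 28.4 and 1.02 CPM in hAFE and did not pass (adjusted p = 0.226; 0.00269 without the second hAFE library). Higher in the second library were VGLL2, a TEAD cofactor, at 0 and 0.145 CPM in hDE, and 0.595 and 68.2 CPM in hAFE, NRP2, a semaphorin and VEGF coreceptor, at 199 and 215 CPM in hDE, and 15.3 and 619 CPM in hAFE, and CGA, the glycoprotein hormone alpha subunit, at 0 and 0 CPM in hDE, and 4.56 and 68.96 CPM in hAFE. NRP2 lay on both sides of hDE (adjusted p = 0.714). It was called higher without the first hAFE library (adjusted p = 0.000598) and lower without the second (adjusted p = 4.09e-05). The call of CGA (adjusted p = 0.0288) had adjusted p = 0.114 and 0.123 without the first and the second hDE library. Among called genes with 10 CPM or more in the higher stage, the hAFE libraries lay over 2 fold apart for 210 of 1804 higher genes (11.6%) and 150 of 2007 lower genes (7.5%). Of the 210, 96 were higher in the first library and 114 in the second. The labels give no property that separates these libraries other than the replicate number.

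**Figure D4:**
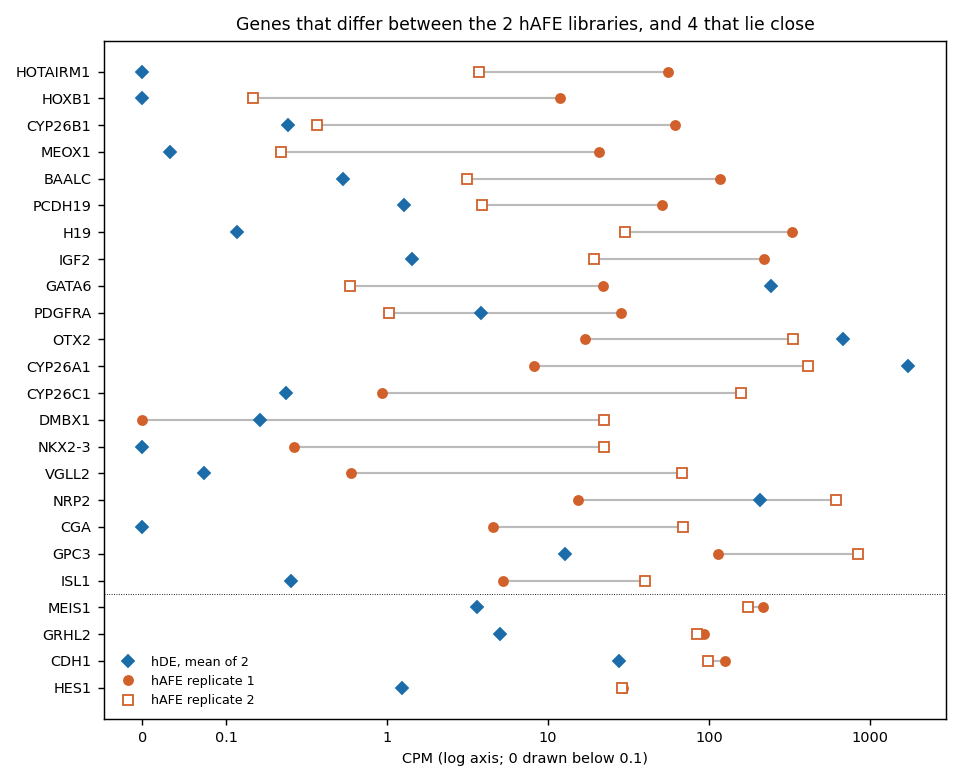
CPM (log axis; 0 drawn below 0.1) in hAFE replicate 1 (filled circle), hAFE replicate 2 (open square) and hDE (diamond, mean of 2) for 20 genes that lie apart in hAFE and, under the dotted line, 4 that lie close. HOTAIRM1, HOXB1 and CYP26B1 are high in replicate 1, and OTX2, CYP26A1 and CYP26C1 in replicate 2.

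The ligand BMP2 fell and the ID genes rose. BMP2 was at 248 and 235 CPM in hDE, and 27.4 and 18.1 CPM in hAFE (log2 fold change -3.40, SE 0.21, adjusted p = 5.48e-05). The ID genes, direct BMP targets that block bHLH factors, all passed in the other direction. ID1 was at 1.16 and 3.40 CPM in hDE, and 29.1 and 68.6 CPM in hAFE (log2 fold change 4.38, SE 0.65, adjusted p = 0.00225). ID2 was at 9.26 and 20.1 CPM in hDE, and 47.9 and 56.2 CPM in hAFE (adjusted p = 0.00919). ID4 was at 1.87 and 6.59 CPM in hDE, and 50.9 and 83.9 CPM in hAFE (adjusted p = 0.00125). All 3 were higher in the second hAFE library than in the first. ID3 was at 7.66 and 10.1 CPM in hDE, and 43.3 and 64.3 CPM in hAFE (adjusted p = 0.00609; 0.0598 without the first hDE library). In all 4 the lower hAFE library exceeded the higher hDE library by over 2 fold. Among other BMP ligands, BMP5 and BMP6 were called higher at low levels (adjusted p = 0.028 and 0.0202). In hAFE BMP5 was at 1.06 and 2.49 CPM and BMP6 at 0.264 and 0.292 CPM. BMP4 and BMP7 did not pass (adjusted p = 0.221 and 0.177). SMAD6 and BAMBI of the same list did not pass either (adjusted p = 0.398 and 0.102). SMAD6 was at 32.0 and 24.5 CPM in hDE, and 10.4 and 27.0 CPM in hAFE. BAMBI was at 12.5 and 11.7 CPM in hDE, and 12.8 and 80.9 CPM in hAFE. The receptor BMPR1B was at 5.07 and 8.62 CPM in hDE, and 59.7 and 57.8 CPM in hAFE (log2 fold change 3.09, SE 0.25, adjusted p = 0.000166). Of 26 tested members of the BMP list, 11 were higher and 3 lower (median 1.88); leaving out the first or the second hDE library left 6 and 6 higher calls.

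In the WNT pathway receptors changed in both directions, the target AXIN2 fell, and the WNT5 ligands rose. AXIN2, a universal feedback target, was at 64.1 and 79.7 CPM in hDE, and 18.1 and 9.21 CPM in hAFE (log2 fold change -2.39, SE 0.31, adjusted p = 0.00134). LGR5, the R-spondin receptor, was at 18.6 and 19.6 CPM in hDE, and 0.0661 and 0 CPM in hAFE, 551-fold (95% counting interval 98.4 to 21800) lower in hAFE (adjusted p = 0.00014). AXIN2 was still present in both hAFE libraries and LGR5 was near 0. FZD8 was at 163 and 181 CPM in hDE, and 25.8 and 26.03 CPM in hAFE (log2 fold change -2.73, SE 0.17, adjusted p = 5.57e-05). FZD7 was at 351 and 322 CPM in hDE, and 70.3 and 47.3 CPM in hAFE (log2 fold change -2.51, SE 0.21, adjusted p = 0.000219). No library of these genes overlapped between stages. The receptors FZD3, at 89.6 and 70.9 CPM in hDE, and 182 and 231 CPM in hAFE (adjusted p = 0.00116), and LGR4, at 71.03 and 77.5 CPM in hDE, and 138 and 180.1 CPM in hAFE (adjusted p = 0.00418), were higher, as was FZD1, at 5.96 and 3.04 CPM in hDE, and 17.5 and 34.8 CPM in hAFE (adjusted p = 0.00426). WNT5A, which mostly acts without beta-catenin, was at 0.890 and 0.290 CPM in hDE, and 32.4 and 27.7 CPM in hAFE (log2 fold change 5.71, SE 0.37, adjusted p = 6.41e-05). Its relative WNT5B was at 0.356 and 0.507 CPM in hDE, and 11.4 and 23.8 CPM in hAFE (log2 fold change 5.30, SE 0.55, adjusted p = 0.000514). LEF1, a nuclear partner of beta-catenin, went against the fall of AXIN2, at 0.267 and 0.0724 CPM in hDE, and 6.48 and 3.66 CPM in hAFE (log2 fold change 4.90, SE 0.65, adjusted p = 0.00143). RNF43 of the same list was also higher, at 0.712 and 0.869 CPM in hDE, and 7.33 and 3.29 CPM in hAFE (log2 fold change 2.73, SE 0.51, adjusted p = 0.00631). Over the receptors, antagonists and targets, 7 of 35 were higher and 8 lower, a mixed count.

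FGF ligands changed in both directions. FGF17, a ligand of the FGF8 family, fell from 389 and 378 CPM to 0.396 and 0.146 CPM (log2 fold change -10.39, SE 0.30, adjusted p = 7.39e-06), and FGF8 from 17.9 and 16.4 CPM to 0.132 and 1.90 CPM (adjusted p = 0.00952; 0.0555 and 0.0523 without the first and the second hDE library). FGF9 was at 0.0890 and 0.652 CPM in hDE, and 3.11 and 9.14 CPM in hAFE and FGF2 at 5.96 and 6.37 CPM in hDE, and 17.2 and 12.8 CPM in hAFE, both called higher (adjusted p = 0.00881 and 0.0051; FGF9 0.0562 without the first hDE library). In all 4 members rose and 2 fell of 8 tested. In the list of FGF receptors and targets of ERK, the kinase they activate, 6 of 18 rose and 5 fell: DUSP4, an ERK phosphatase, was at 371 and 265 CPM in hDE, and 54.6 and 40.5 CPM in hAFE (log2 fold change -2.74, SE 0.26, adjusted p = 0.000348). The receptor FGFR2 was at 22.3 and 20.6 CPM in hDE, and 62.3 and 54.6 CPM in hAFE (log2 fold change 1.45, SE 0.17, adjusted p = 0.000805). The hDE and hAFE libraries of DUSP4 and FGFR2 were apart. The ERK targets went both ways, with DUSP4, SPRY4, SPRED1, SPRED2 and ETV4 as the 5 falls and SPRY1, SPRED3 and DUSP6 among the rises. SPRY1 was at 2.31 and 2.61 CPM in hDE, and 11.5 and 60.99 CPM in hAFE (adjusted p = 0.00612). DUSP6 was at 66.9 and 65.8 CPM in hDE, and 198 and 91.04 CPM in hAFE (adjusted p = 0.0295).

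Genes that carry and read retinoic acid were among the rises. CRABP2, which carries retinoic acid to its receptor, was at 11.9 and 9.56 CPM in hDE, and 213 and 63.3 CPM in hAFE (log2 fold change 3.69, SE 0.55, adjusted p = 0.00234). RARB, a receptor gene that retinoic acid itself induces, was at 23.3 and 19.1 CPM in hDE, and 149 and 81.5 CPM in hAFE (log2 fold change 2.44, SE 0.45, adjusted p = 0.00601; adjusted p = 0.0601 without the second hDE library), and STRA6, the retinol importer, at 3.20 and 3.55 CPM in hDE, and 9.45 and 10.7 CPM in hAFE (log2 fold change 1.58, SE 0.24, adjusted p = 0.00267). The first hAFE library was the higher for CRABP2 and RARB. ALDH1A3, one of the enzymes that make retinoic acid, fell from 29.5 and 33.3 CPM to 0.595 and 0.439 CPM (log2 fold change -5.89, SE 0.65, adjusted p = 0.000673). Of 19 tested members 8 rose and 2 fell (median 0.71), with 4 and 3 higher calls without the first and the second hDE library.

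PTCH1, BOC and GLI1 of the hedgehog pathway rose. PTCH1, the receptor and a standard target, was at 16.02 and 18.8 CPM in hDE, and 71.2 and 106 CPM in hAFE (log2 fold change 2.35, SE 0.29, adjusted p = 0.00108). GLI1, the other standard target, was at 0.712 and 1.52 CPM in hDE, and 7.93 and 5.63 CPM in hAFE (log2 fold change 2.57, SE 0.39, adjusted p = 0.00261). The coreceptor BOC was at 1.25 and 1.16 CPM in hDE, and 14.6 and 38.8 CPM in hAFE (log2 fold change 4.47, SE 0.71, adjusted p = 0.00314). All 3 were higher in both hAFE libraries than in hDE. The ligand SHH was at 7.74 and 11.5 CPM in hDE, and 8.72 and 13.7 CPM in hAFE and its libraries overlapped (adjusted p = 0.734); it reached a mean of 119.8 CPM in hPFE. Of 16 tested members 9 rose and none fell, with 5 and 6 of them called without the first and the second hDE library. HES1, a Notch target that other pathways also induce, was at 0.801 and 1.67 CPM in hDE, and 29.2 and 28.8 CPM in hAFE (log2 fold change 4.52, SE 0.35, adjusted p = 0.000133). The Notch ligand DLL1 was at 0.445 and 0.362 CPM in hDE, and 13.1 and 8.56 CPM in hAFE (log2 fold change 4.73, SE 0.52, adjusted p = 0.00066); over the Notch list only 3 of 23 members rose and 4 fell.

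**Figure D5:**
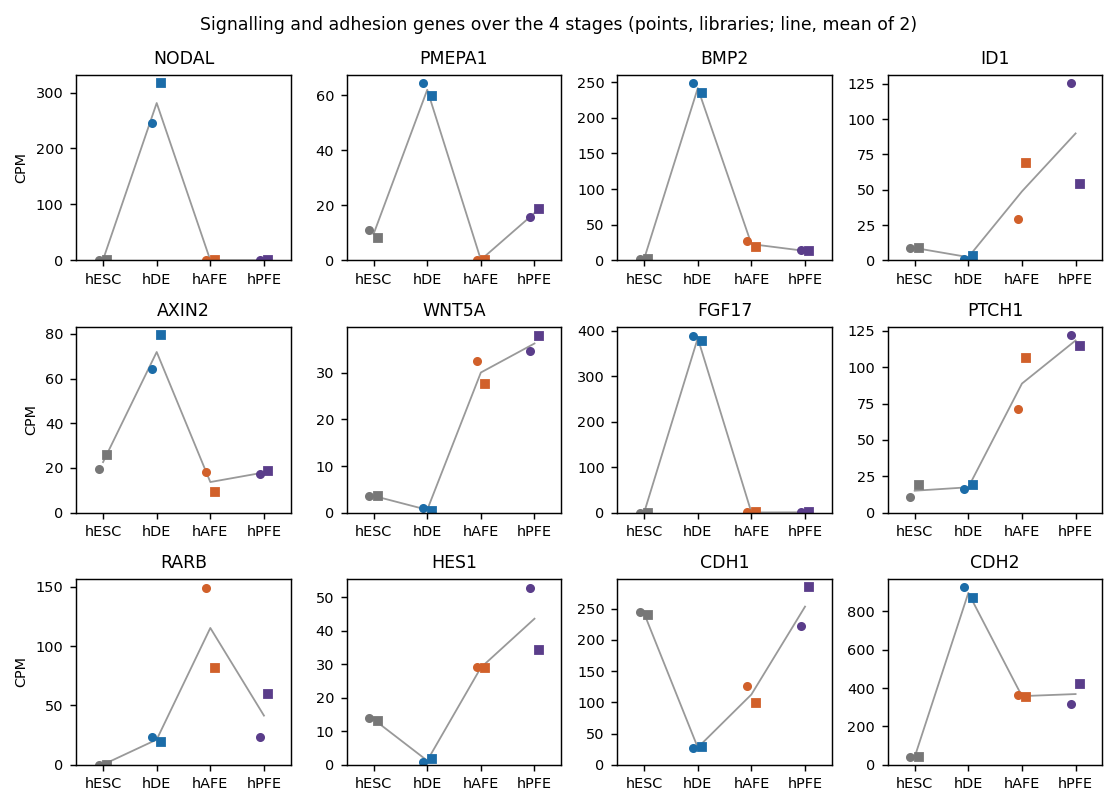
CPM (linear axis) of 12 signalling and adhesion genes at the 4 stages, with a circle and a square for replicates 1 and 2 and a line through the mean of the 2. NODAL, FGF17 and BMP2 peak in hDE, and CDH1 is lowest there at 27.1 and 27.96 CPM.

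Cadherins of both epithelial and mesenchymal cells changed. CDH1 (E-cadherin; hg38, chr16:68737225-68835548, plus strand) was at 27.1 and 27.96 CPM in hDE, and 126 and 99.3 CPM in hAFE (log2 fold change 2.03, SE 0.18, adjusted p = 0.000245). CDH3 (P-cadherin) was at 56.97 and 65.2 CPM in hDE, and 172 and 142 CPM in hAFE (log2 fold change 1.36, SE 0.15, adjusted p = 0.000672). CDH2 (N-cadherin) was at 925 and 867 CPM in hDE, and 363 and 353 CPM in hAFE (log2 fold change -1.32, SE 0.16, adjusted p = 0.00101; adjusted p = 0.359 on log2(TPM + 1)). CDH11, typical of mesenchyme, was at 2.40 and 0.869 CPM in hDE, and 28.3 and 36.1 CPM in hAFE (log2 fold change 4.33, SE 0.50, adjusted p = 0.000832), and CDH6, of kidney and crest among others, at 2.23 and 1.88 CPM in hDE, and 39.4 and 64.7 CPM in hAFE (log2 fold change 4.66, SE 0.55, adjusted p = 0.000872). The cadherin values did not overlap between stages, and both hAFE libraries still carried CDH2. GRHL2, a factor that keeps epithelia closed, was at 5.07 and 4.92 CPM in hDE, and 93.5 and 84.4 CPM in hAFE (log2 fold change 4.15, SE 0.22, adjusted p = 3.29e-05), and SNAI1, a repressor of CDH1, fell from 4.81 and 5.21 CPM to 0.396 and 0.512 CPM (log2 fold change -3.45, SE 0.60, adjusted p = 0.00471). CDH1 was at a mean of 242 CPM in hESC and GRHL2 at 34.5 CPM, so both were lower in hDE than in the stem cells of the same origin label. Of 12 tested epithelial guardian and mesenchymal transition factors 3 rose, 2 fell and 7 did not pass (median 0.23). Of 18 cadherin and adhesion genes 7 rose and 2 fell (median 1.60). Among tight junction genes CLDN4 was at 0 and 0.435 CPM in hDE, and 21.6 and 38.2 CPM in hAFE (log2 fold change 6.92, SE 0.57, adjusted p = 0.000184). TJP3 was at 0.534 and 0.507 CPM in hDE, and 12.9 and 12.4 CPM in hAFE (log2 fold change 4.58, SE 0.34, adjusted p = 0.000108). CLDN11 was at 43.8 and 28.8 CPM in hDE, and 0.330 and 0.146 CPM in hAFE (log2 fold change -7.18, SE 0.47, adjusted p = 6.54e-05). Over that list 5 of 19 rose and 4 fell.

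Integrins changed in both directions. ITGB5, ITGA5 and ITGAV, subunits of fibronectin and vitronectin receptors, were lower, and the other such subunits ITGB6 and ITGB8 were higher. ITGB5 was at 453 and 470.3 CPM in hDE, and 47.6 and 77.7 CPM in hAFE (log2 fold change -2.88, SE 0.30, adjusted p = 0.000492). ITGA5 was at 221 and 165 CPM in hDE, and 28.5 and 51.04 CPM in hAFE (log2 fold change -2.28, SE 0.29, adjusted p = 0.00126). ITGAV was at 575 and 450.0 CPM in hDE, and 128 and 222 CPM in hAFE (adjusted p = 0.00401). These 3 were higher in the second hAFE library than in the first. ITGB8 was at 47.2 and 52.5 CPM in hDE, and 87.1 and 142 CPM in hAFE (adjusted p = 0.00576; 0.0561 without the first hDE library) and ITGB6 at 0.0890 and 0.0724 CPM in hDE, and 6.48 and 8.702 CPM in hAFE (adjusted p = 0.0118; 0.0776 and 0.0893 without the first and the second hDE library). The matrix protein TNC (tenascin C) was at 208 and 227 CPM in hDE, and 9.32 and 19.1 CPM in hAFE (log2 fold change -3.94, SE 0.71, adjusted p = 0.00541). ITGA3 and ITGB4, subunits of laminin receptors, were higher. ITGA3 was at 5.52 and 6.08 CPM in hDE, and 31.5 and 16.3 CPM in hAFE (log2 fold change 2.04, SE 0.33, adjusted p = 0.00329). ITGB4, part of hemidesmosomes, was at 0.623 and 0.869 CPM in hDE, and 3.57 and 4.53 CPM in hAFE (log2 fold change 2.41, SE 0.38, adjusted p = 0.00272; adjusted p = 0.0765 with length offsets and 0.678 on log2(TPM + 1) centred on library medians). The stages did not overlap in these genes. In all 5 of 19 list members rose, 6 fell and 8 did not pass. NID1, a basement membrane linker, was at 2.23 and 1.96 CPM in hDE, and 36.9 and 28.7 CPM in hAFE (log2 fold change 3.97, SE 0.30, adjusted p = 0.000133). COL4A1, the main basement membrane collagen chain, was at 703 and 579.8 CPM in hDE, and 197 and 199.7 CPM in hAFE (log2 fold change -1.69, SE 0.15, adjusted p = 0.000264; adjusted p = 0.0753 on log2(TPM + 1)).

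Guidance molecules changed in both directions, with 15 of 41 tested ephrin, semaphorin, Slit and netrin genes higher and 11 lower; 8 and 9 rises and 7 and 7 falls were called without the first and the second hDE library. PLXNA4, a semaphorin receptor, was at 118 and 123 CPM in hDE, and 0.264 and 0.512 CPM in hAFE (log2 fold change -8.27, SE 0.34, adjusted p = 1.43e-05). SEMA3E, a secreted semaphorin, was at 239 and 218 CPM in hDE, and 9.78 and 6.22 CPM in hAFE (log2 fold change -4.83, SE 0.23, adjusted p = 2.11e-05). Both were lower in both hAFE libraries. EFNB2, a membrane ligand of Eph receptors, was at 2.40 and 4.42 CPM in hDE, and 84.6 and 179 CPM in hAFE (log2 fold change 5.25, SE 0.43, adjusted p = 0.000176). SLIT2, a secreted repellent, was at 2.85 and 3.11 CPM in hDE, and 31.7 and 13.9 CPM in hAFE (log2 fold change 2.93, SE 0.47, adjusted p = 0.00309). The semaphorin pair was high in hDE and the ephrin and Slit genes in hAFE, with no overlap.

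Several glycolytic and hypoxia-responsive genes were lower. SLC2A3 (GLUT3), the high-affinity glucose transporter, was at 4833 and 4019 CPM in hDE, and 66.7 and 358 CPM in hAFE (log2 fold change -4.38, SE 0.79, adjusted p = 0.00523). LDHA, which makes lactate, was at 193 and 227 CPM in hDE, and 56.1 and 47.8 CPM in hAFE (log2 fold change -2.01, SE 0.20, adjusted p = 0.000388). SLC2A1 (GLUT1) went the other way, at 23.4 and 26.4 CPM in hDE, and 59.9 and 49.2 CPM in hAFE (log2 fold change 1.13, SE 0.16, adjusted p = 0.0017). Of 20 glycolysis genes 9 fell and 2 rose (median -0.53); on log2(TPM + 1) that was 2 and 6, and centred on library medians 8 and 2. BNIP3, a mitophagy receptor induced by hypoxia, was at 166 and 154 CPM in hDE, and 20.7 and 21.3 CPM in hAFE (log2 fold change -2.93, SE 0.19, adjusted p = 6.41e-05). ADM, the secreted peptide adrenomedullin, was at 108 and 110.1 CPM in hDE, and 7.07 and 3.58 CPM in hAFE (log2 fold change -4.34, SE 0.36, adjusted p = 0.000189). The oxygen sensor EGLN3 was at 46.4 and 44.1 CPM in hDE, and 2.58 and 5.34 CPM in hAFE (log2 fold change -3.52, SE 0.32, adjusted p = 0.000292). Over the hypoxia list 6 of 15 fell and 3 rose, and the libraries of the 3 named genes were well apart. Of 25 nuclear respiratory chain genes 1 rose and 1 fell, and of 24 ribosomal protein genes none rose and 1 fell. Of 13 mitochondrially encoded messenger genes none rose and 9 fell on the CPM scale (median -0.69). Their summed TPM was 4151 and 3779 in hDE, and 4469 and 4719 in hAFE.

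The integrated stress response, in which ATF4 raises amino acid transport and synthesis genes, was lower as a list: 16 of 22 tested genes fell and none rose, with a median of -2.06; the falls numbered 12 and 11 without the first and the second hDE library, 8 on log2(TPM + 1) and 19 with medians centred. SLC7A5, the leucine transporter LAT1 (hg38, chr16:87830023-87869488, minus strand), was at 1116 and 1189.8 CPM in hDE, and 94.5 and 106 CPM in hAFE (log2 fold change -3.53, SE 0.41, adjusted p = 0.000802). Its heavy chain SLC3A2 was at 864 and 904 CPM in hDE, and 133 and 140.2 CPM in hAFE (log2 fold change -2.69, SE 0.21, adjusted p = 0.000148). TRIB3, a pseudokinase induced by ATF4, was at 67.5 and 92.8 CPM in hDE, and 5.48 and 11.5 CPM in hAFE (log2 fold change -3.24, SE 0.47, adjusted p = 0.00196). For all 3 the higher hAFE library stayed well below the lower hDE library. CHAC1, which degrades glutathione, was at 94.4 and 102 CPM in hDE, and 17.1 and 18.9 CPM in hAFE (log2 fold change -2.45, SE 0.44, adjusted p = 0.00527). HSPA5 (BiP), the main chaperone of the endoplasmic reticulum, was at 394 and 321 CPM in hDE, and 98.99 and 97.6 CPM in hAFE (log2 fold change -1.86, SE 0.17, adjusted p = 0.000331). Both were alike in the 2 hAFE libraries. HERPUD1, of the same organelle's quality control, was at 168 and 122 CPM in hDE, and 25.3 and 31.2 CPM in hAFE (log2 fold change -2.36, SE 0.28, adjusted p = 0.000969). ASNS, which makes asparagine, was at 249.8 and 283 CPM in hDE, and 104 and 118 CPM in hAFE (log2 fold change -1.26, SE 0.26, adjusted p = 0.00913; adjusted p = 0.0638 without the second hDE library and 0.473 on log2(TPM + 1)). The hDE libraries stood above hAFE for every gene named here, and also above the hESC means, which were 147 CPM for SLC7A5 and 37.4 CPM for CHAC1.

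The same promoter windows were searched on both strands for TGATGNAA, a core of the composite element bound by ATF4 with C/EBP factors. It was in 3 of the 13 falling members with a promoter in the table and in 2 of the 5 that did not pass, against 3.19% of all promoters. The 3 stretches are shown because they hold a known element in genes that fell. Capitals mark the motif or its reverse complement.
ASNS, chr7:97872439-97872506, gene on the minus strand: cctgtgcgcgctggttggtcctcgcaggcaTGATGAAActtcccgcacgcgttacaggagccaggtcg
CHAC1, chr15:40953232-40953299, gene on the plus strand: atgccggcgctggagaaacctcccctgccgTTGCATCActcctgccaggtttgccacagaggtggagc
HERPUD1, chr16:56931936-56932003, gene on the plus strand: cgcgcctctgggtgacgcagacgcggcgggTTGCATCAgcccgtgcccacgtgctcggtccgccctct
In CHAC1 and HERPUD1 the match was on the strand opposite to the gene, and in ASNS on the same strand.

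Cholesterol synthesis moved the other way, with 9 of 23 tested genes higher and none lower (median 0.65); 7 and 5 stayed called without the first and the second hDE library, and 21 were called higher on log2(TPM + 1). INSIG1, which holds the SREBP factors back when sterol is plentiful, was at 10.8 and 11.01 CPM in hDE, and 41.6 and 36.7 CPM in hAFE (log2 fold change 1.84, SE 0.24, adjusted p = 0.00124). SREBF2, the SREBP factor of this pathway, was at 68.5 and 71.8 CPM in hDE, and 129 and 121 CPM in hAFE (adjusted p = 0.00842; 0.0688 and 0.0567 without the first and the second hDE library). The hAFE libraries exceeded hDE in both, and the hESC mean of INSIG1 was 92.98 CPM. TCACNCCAC, a core of the sterol regulatory element, lay in 1 of 6 rising members with a promoter in the table, in 0 of 11 that did not pass and in 0.88% of all promoters. That promoter is SREBF2's own, shown with the match in capitals.
SREBF2, chr22:41832942-41833010, gene on the plus strand: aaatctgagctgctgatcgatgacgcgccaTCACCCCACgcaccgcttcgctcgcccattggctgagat
The BMP response element core GGCGCC, a palindrome, was in 1 of 10 rising members of the BMP list, in 1 of 1 falling member, in 4 of 9 that did not pass and in 16.1% of all promoters, and no stretch is shown for it.

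CCND1 and MCM2 rose among cell cycle genes. CCND1 (cyclin D1) was at 6.59 and 5.58 CPM in hDE, and 246 and 153 CPM in hAFE (log2 fold change 5.04, SE 0.27, adjusted p = 3.29e-05). MCM2, a subunit of the replicative helicase, was at 63.02 and 67.9 CPM in hDE, and 229 and 210.5 CPM in hAFE (log2 fold change 1.75, SE 0.13, adjusted p = 0.000125). MKI67, the proliferation marker, was at 147 and 139 CPM in hDE, and 192 and 191 CPM in hAFE and did not pass (adjusted p = 0.176; 0.0322 and 0.0327 without the first and the second hPFE library). Of 28 replication and mitosis genes 13 were higher and none lower (median 0.62), with 8 and 7 called without the first and the second hDE library. CDKN1A (p21), an inhibitor of cyclin-dependent kinases, also rose, at 2.85 and 2.03 CPM in hDE, and 34.4 and 49.5 CPM in hAFE (log2 fold change 4.11, SE 0.46, adjusted p = 0.000722). CDKN1B (p27) was at 61.5 and 58.95 CPM in hDE, and 30.3 and 30.3 CPM in hAFE (log2 fold change -0.99, SE 0.13, adjusted p = 0.00118; adjusted p = 0.66 on log2(TPM + 1)).

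DNA methylation enzymes changed in both directions. DNMT3B, a de novo methyltransferase, was at 188 and 181 CPM in hDE, and 40.6 and 22.9 CPM in hAFE (log2 fold change -2.54, SE 0.28, adjusted p = 0.000692), and the maintenance pair rose, DNMT1 to 126 and 116 CPM from 57.9 and 57.5 CPM (log2 fold change 1.07, SE 0.14, adjusted p = 0.00137) and UHRF1 to 95.7 and 82.05 CPM from 19.9 and 18.6 CPM (log2 fold change 2.21, SE 0.23, adjusted p = 0.000488). EZH2, the catalytic subunit of polycomb repressive complex 2, was at 26.5 and 29.7 CPM in hDE, and 81.3 and 66.1 CPM in hAFE (log2 fold change 1.39, SE 0.18, adjusted p = 0.00129). The stages did not overlap in any of these 4 genes. Among imprinted genes 9 of 21 rose and 2 fell (median 0.95). H19, a maternally expressed RNA, was at 0.0890 and 0.145 CPM in hDE, and 329.9 and 30.1 CPM in hAFE, 1570-fold (95% counting interval 535 to 7600) higher in hAFE (adjusted p = 0.00255). Its neighbour IGF2, a growth factor expressed from the paternal copy, was at 1.78 and 1.09 CPM in hDE, and 219 and 19.2 CPM in hAFE (adjusted p = 0.00725; 0.0601 and 0.0715 without the first and the second hDE library). Both were over 10 fold higher in the first hAFE library than in the second. DLK1, a Notch-related imprinted gene, was closer, at 2.49 and 1.38 CPM in hDE, and 79.1 and 54.6 CPM in hAFE (log2 fold change 5.13, SE 0.79, adjusted p = 0.00269), and GRB10, an adaptor that restrains growth factor receptors, fell from 308 and 292 CPM to 55.7 and 41.4 CPM (log2 fold change -2.63, SE 0.17, adjusted p = 6.41e-05).

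Some of the largest changes were in genes of no list. PDE3A, a cyclic nucleotide phosphodiesterase, was at 0.178 and 0.0724 CPM in hDE, and 124 and 115 CPM in hAFE, 1000-fold (95% counting interval 342 to 4860) higher in hAFE (adjusted p = 0.000924). TNFSF15, a TNF-family cytokine, was at 0.178 and 0 CPM in hDE, and 71.6 and 38.7 CPM in hAFE, 701-fold (95% counting interval 194 to 5790) higher (adjusted p = 0.000759). SYT6, a synaptotagmin, was at 0 and 0 CPM in hDE, and 11.3 and 27.1 CPM in hAFE, at least 157-fold higher (adjusted p = 0.000969), and had 31.9 CPM in hESC. These 3 had at most 3 counts over both hDE libraries. Among falls, SLC5A9, a sodium-coupled sugar transporter, was at 275 and 209 CPM in hDE, and 0.330 and 0 CPM in hAFE (log2 fold change -10.38, SE 0.49, adjusted p = 2.11e-05). NR0B1 (DAX1), an orphan nuclear receptor, was at 9.52 and 15.6 CPM in hDE, and 0 and 0 CPM in hAFE, at least 124-fold lower (adjusted p = 0.000248). Both were under 1 CPM in both hAFE libraries. Among non-coding RNAs MIR205HG, the host transcript of an epithelial microRNA, was at 1.25 and 0.869 CPM in hDE, and 57.2 and 137 CPM in hAFE (log2 fold change 6.52, SE 0.60, adjusted p = 0.000303). AC106864.1, annotated as an antisense RNA on chromosome 4, so that its reads may mix with those of its partner, was at 146 and 152 CPM in hDE, and 0.0661 and 0.0731 CPM in hAFE, 2150-fold (95% counting interval 594 to 17700) lower (adjusted p = 1.43e-05). By biotype, 8.94% of 727 tested lincRNAs rose and 14.4% fell, against 16.4% and 16.1% of protein-coding genes.

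Markers of other cell types moved in both directions. The surface ectoderm and placode list summed to 56.0 and 65.0 CPM in hDE and to 152 and 282 CPM in hAFE, with 7 of 12 tested members higher, none lower and 2 of 15 listed at 0 in hAFE. The neural list summed to 356 and 399.9 CPM in hDE and to 555 and 451 CPM in hAFE, with 2 of 12 higher and 1 lower. The cardiac list summed to 382 and 315 CPM in hDE and to 129 and 146 CPM in hAFE, with 3 of 11 higher and 3 lower. The paraxial mesoderm list was low in hDE, at 1.42 and 1.52 CPM, and stood at 22.0 and 2.92 CPM in hAFE. MEOX1, given above, made up 20.6 and 0.219 CPM of these hAFE sums and was the 1 member called of 4 tested (adjusted p = 0.044; 0.175 and 0.216 without the first and the second hDE library). The endothelial and blood list summed to 21.5 and 20.5 CPM in hDE and 10.4 and 7.09 CPM in hAFE, with 4 of 15 members at 0 in hAFE and none called higher. The neural crest list summed to 63.1 and 71.8 CPM in hDE and to 102 and 101 CPM in hAFE. Of its 9 tested members 2 rose and 3 fell (median 0.27), and 3 of 13 listed were at 0 in hAFE. Among the falls was SOX10, the defining factor of the list, at 5.96 and 9.99 CPM in hDE, and 0.0661 and 0.0731 CPM in hAFE. That was 118-fold (95% counting interval 32.2 to 980) lower (adjusted p = 0.000491). The amnion and trophoblast list summed to 9.44 and 8.18 CPM in hDE and to 31.7 and 138 CPM in hAFE, of which CGA made up 4.56 and 68.96 CPM, with 6 of 13 tested members higher and 7 of 20 at 0 in hAFE; its rises included CGA, given above, and ELF5, an ETS factor also found in other epithelia, at 0 and 0 CPM in hDE, and 10.4 and 8.92 CPM in hAFE (adjusted p = 0.000582). The mesenchyme list summed to 2889 and 2874 CPM in hDE and to 1045 and 667.3 CPM in hAFE, with 1 of 14 higher and 4 lower. In it TAGLN was at 1979.5 and 1983 CPM in hDE, and 673 and 326 CPM in hAFE (log2 fold change -1.99, SE 0.31, adjusted p = 0.00286). COL5A2, a fibrillar collagen chain, was at 359 and 269.6 CPM in hDE, and 7.93 and 9.65 CPM in hAFE (log2 fold change -5.16, SE 1.06, adjusted p = 0.00903). ACTA2 was at 0.623 and 0.579 CPM in hDE, and 72.9 and 216 CPM in hAFE (log2 fold change 7.89, SE 1.05, adjusted p = 0.00143), so that 2 actin-associated genes moved in opposite directions. ACTA2 and FAS overlap on opposite strands of chromosome 10, and the strand setting of the counting is not known from the labels or headers. Among markers of later organs, the liver, pancreas and intestine list had 2 of 11 tested members higher and 3 lower (median 0.72). The lung, thyroid and thymus list had 1 of 4 tested members higher and 3 lower. The liver factor HNF4A was at 3.12 and 3.62 CPM in hDE, and 0 and 0 CPM in hAFE, at least 32.6-fold lower in hAFE (adjusted p = 0.00459). The part of other cell types in these results was not tested.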

How the data were processed

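Total RNA was extracted with Trizol, ribosomal RNA was depleted, and strand-specific libraries were sequenced as paired ends, per the labels' protocols. The deposited expected counts (estimated counts per gene), TPM and FPKM came from RSEM on hg38, per the submitters' processing notes and the file headers, with posterior means and deviations beside them. The aligner and the strand setting are not given in the sources used here. TPM was used for alternatives and levels per length, and the deposited FPKM values were not used. Of 59526 rows, 58780 matched GENCODE release 29, and the 746 others held 0 counts. Expected counts were rounded, 5.05% of all values in the matched rows being not whole. Genes were filtered with filterByExpr, scaled by TMM and tested with edgeR 4.0.16 (quasi-likelihood, R 4.3.3) on the 8 libraries together, with a term for each of the 4 stages and 4 degrees of freedom left. The SE is the absolute log2 fold change over the root of the F statistic. Fold ratios at 3 counts or fewer over both libraries use a floor of 3 counts at 0 counts and otherwise an exact 95% interval for counting error only. The scripts were tested on simulated data. Alternatives used DESeq2 1.42.0, limma 3.58.1, log2(TPM + 1), log2(TPM + 0.1), other filters, scaling, a replicate block and each library left out; centring on library medians was chosen after seeing the data.

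The members are all genes; the comparison and its 54 gene lists were chosen with earlier results of these data known, and which lists have genes named was chosen after their counts were seen. Genes named are 8 landmarks, the 12 largest rises and falls of coding genes and 4 of other biotypes at 10 CPM or more, up to 3 called members of a list in its main direction, 2 in the other and 2 that did not pass, the 8 most abundant genes, and the 8 genes that most favoured each hAFE library. ASNS, AXIN2, BAMBI, BMP4, BMP5, BMP6, BMP7, BMPR1B, BNIP3, CDH1, CDH3, CHAC1, DUSP6, FZD1, FZD3, GDF3, GLI1, HERPUD1, HSPA5, ID2, ID3, ID4, ITGA5, ITGAV, ITGB4, ITGB8, LGR4, NKX2-3, PTCH1, RARB, SLC3A2, SLIT2, SMAD6, SMAD7, SPRED1, SPRED2, SPRY4, SREBF2 and STRA6 fall outside that rule and were chosen after their values were seen, as were the untested TBXT, MESP1, EVX1, TBX6 and HOXD13. Promoters are from RefSeq (GRCh38.p14). Some genes are not reported here. In 8 of 10 promoters checked, the bases after the start opened a GENCODE transcript of the gene.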

Additional observations from a re-analysis of the deposited data

How the results depend on the processing

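The comparison gave 5267 genes, 2609 higher and 2658 lower. On log2(TPM + 1) it gave 6457 higher and 818 lower, on log2(TPM + 0.1) 8366 in all, 7463 and 903, and with a minimum of 2 fold in the test 1704 in all, 786 and 918. Leaving out each library in turn gave 2512 to 6354 genes in all, 1135 to 3107 higher and 1373 to 3247 lower, the lowest values without an hDE library. Without the first hDE library 2544 genes were called, and without the second 2512. The replicate numbers did not pair the samples: the correlation of replicate differences was 0.0607 between hDE and hAFE over 9852 genes, and with a replicate block 2441 genes were higher and 2500 lower. With that block NKX2-3 passed (adjusted p = 0.0044), and CYP26B1 and MEOX1 did not (0.0514 and 0.0643). Of 2995 values of 143 named genes under the alternatives, 2833 kept direction and side of the threshold, 127 lost the call, 23 gained it and 12 changed sign; the cause was not tested. FOXA2 was at -0.0361 with a replicate block, -0.0176 with a weight per stage and -0.635 to 0.5751 with 1 library left out, the lowest without the first hAFE library. NRP2 was at -0.1922 on log2(TPM + 0.1), -0.672 centred, -0.0291 on log2(TPM + 1), -1.1068 with a weight per stage and -3.7598 to 1.5895 with 1 library left out. PDGFRA was at -1.8848 to 2.892 with 1 library left out. SHH was at -0.1016 centred and at -0.1504 to 0.545 with 1 library left out, -0.0379 without the first hDE library. With 2 libraries a stage, levels near 1 CPM rest on few counts.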
